A study of Bos taurus with 4 samples.

Results

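Loci of 8-oxoguanine (8-oxoG) assigned to the genes NR3C1, NUDT12, ADAMTS3, FAM107A, LYRM1, SET and TMEM261 were described in sperm DNA of 2 bulls. A locus is a row of a bull's list of enriched positions, and every row with 1 of these 7 symbols as its nearest gene was taken. This gave 80 of the 984 loci in both lists, 36 of 370 in the fertile bull C13 and 44 of 614 in the infertile bull C14. The 7 genes are among 353 genes with a locus in either list. The genes were chosen by their numbers of loci, which lie between those of the largest clusters and those of genes with a single locus, so these numbers are a description and support nothing else. Both animals were 6-year-old Korean native striped cattle, and the labels name no treatment. From each bull, 1 library of captured 8-oxoG DNA and 1 library of untreated input DNA were sequenced. Bull and fertility therefore cannot be told apart, and there was no replicate by which to judge a difference between the lists. The lists hold no measure by which the sperm label could be checked.

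Guanine is the base most easily oxidised in DNA, and 8-oxoG, its common oxidation product, can pair with adenine and so lead to G-to-T changes. The glycosylase OGG1 normally excises the base, and sperm, with their compact chromatin and little repair, are known to be prone to it. In OG-seq, 8-oxoG in sheared DNA is coupled to biotin, captured on streptavidin beads and sequenced, so that fragments pile up around the lesions. The pileup of a locus is the number of such fragments at its summit, and the local background is the number expected there from the input of the same bull. Fold enrichment is the pileup over this background, with 1 added to both.

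The members have unlike functions. NR3C1 is the glucocorticoid receptor, a ligand-activated transcription factor. NUDT12 is a Nudix hydrolase of NADH and related dinucleotides. ADAMTS3 is a secreted metalloprotease that trims procollagen and processes the lymphatic growth factor VEGF-C. FAM107A is an actin-binding protein whose gene responds to stress and glucocorticoids. LYRM1 belongs to the small LYR motif proteins, many of which serve in mitochondria. SET is a histone chaperone and an inhibitor of the phosphatase PP2A. TMEM261, now named DMAC1, is an assembly factor of mitochondrial complex I.

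The lists differed in size and in level throughout, which bears on each comparison of the bulls. C14 had 1.66 times as many loci as C13. The median pileup was 9 fragments in C13, over a range of 4 to 74, and 18 fragments in C14, over a range of 5 to 182. The lowest local background, which MACS2 sets from the whole library, was 0.135 fragments in C13 and 0.359 in C14, a ratio of 2.66. Pileups were not normalized between the bulls, so a C14 pileup is read beside the ratio over all loci found in both.

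NR3C1, NUDT12, FAM107A, ADAMTS3 and SET had more loci in C14, whereas LYRM1 and TMEM261 had more in C13. NR3C1 and NUDT12 each had 5 loci in C13 and 8 in C14. ADAMTS3 had 7 and 8, FAM107A 4 and 11, and SET 1 and 3. LYRM1 had 6 loci in C13 and 4 in C14, and TMEM261 had 8 and 2. More C13 than C14 loci were found for 22.9% of the 353 genes, and for 15.1% of the 126 genes with a locus in both lists. In the lists as deposited, the excess of 6 C13 loci at TMEM261 was the largest of any gene, and that at LYRM1 was 2. With a −log10 q of at least 5, TMEM261 had 4 loci in C13 and 2 in C14. Some loci are subpeaks of 1 interval, so the 36 C13 loci lay in 34 intervals and the 44 C14 loci in 42.

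**Figure D1:**
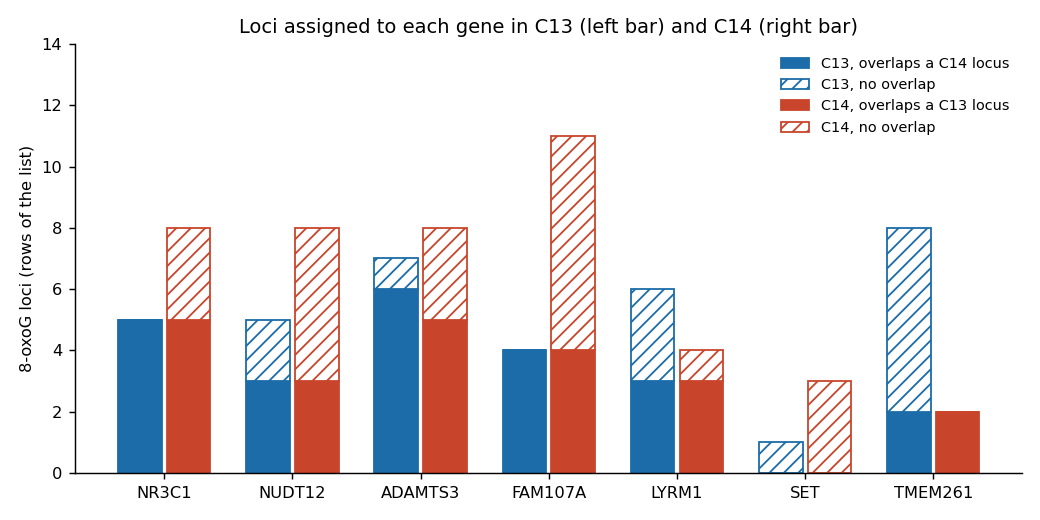
Number of 8-oxoG loci (rows of the list) assigned to each gene, with C13 as the left and C14 as the right bar; filled parts overlap a locus of the other bull by at least 1 bp, and hatched parts do not. FAM107A had the most C14 loci (11) and TMEM261 the most C13 loci (8), while no SET locus overlapped.

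In C13, 23 of the 36 loci (63.9%, exact binomial 95% interval 46.2 to 79.2%, counting error only) shared at least 1 bp with a C14 locus, beside 57.0% of the whole C13 list. In C14, 22 of the 44 loci (50%, 34.6 to 65.4%) overlapped a C13 locus, beside 36.6% of the whole C14 list. Every C13 locus of NR3C1 (5 of 5) and FAM107A (4 of 4) overlapped, as did 6 of 7 at ADAMTS3. At NUDT12 3 of 5 C13 loci overlapped, at LYRM1 3 of 6 and at TMEM261 2 of 8. The exact intervals of NR3C1 (47.8 to 100%), ADAMTS3 (42.1 to 99.6%), FAM107A (39.8 to 100%), NUDT12 (14.7 to 94.7%), LYRM1 (11.8 to 88.2%) and TMEM261 all held the 57.0% of the list. They are wide at 4 to 8 loci a gene, and they treat subpeaks of 1 interval as separate. By distinct intervals the ADAMTS3 share in C13 was 80%. The counts are thus too small to tell whether the genes differ. SET had no overlapping locus among its 4. The bar chart of locus numbers shows these shares as filled parts.

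All loci of the members were annotated as intronic or distal intergenic, as were all but 0.811% of the C13 list and 2.12% of the C14 list. Those of ADAMTS3 lay inside the gene they are named for. All 15 ADAMTS3 loci lay in intron 17 of 21, between 241 and 258 kb downstream of the TSS, within the gene at chr6:89162542-89460195 in bosTau8. Introns held 22.4% of the whole C13 list and 23.1% of the C14 list. The loci of the other members were annotated as distal intergenic, and a gene symbol there names only the closest TSS. The loci of NR3C1 (chr7:56231970-56350496) lay 234 to 271 kb upstream of its TSS. The loci of NUDT12 (chr7:105030976-105045004) lay 774 to 887 kb upstream, and those of FAM107A (chr22:43354328-43359047) 917 to 952 kb upstream. LYRM1 (chr25:18826142-18835490) had its loci 70.3 to 109 kb downstream of its TSS, beyond the gene's end. TMEM261 (chr8:37291840-37292779) was the farthest, with loci 1145 to 1420 kb downstream of a gene that is 0.94 kb long. Every locus of NUDT12, FAM107A and TMEM261 was more than 400 kb from the TSS, 17 C13 loci and 21 C14 loci, while 21.1% of the C13 list and 22.3% of the C14 list lay that far.

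SET needs a caution on its place. The lists put SET at chr25:19141197-19142589 with a length of 1393 bp, and its loci lay 96.5 to 115 kb upstream of that TSS. In the RefSeq table of the assembly ARS-UCD2.0, the gene with this gene number is on another chromosome, next to GLE1, SPTAN1 and PKN3, and LYRM1 is followed by DNAH3. The loci of LYRM1 and SET all lay between the listed places of these genes on chromosome 25 and were assigned to one or the other by the closer TSS. Whether they lie in DNAH3 cannot be told from a table of another build. They are described together below.

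The spacing of the positions was described for each gene. An overlapping pair counts as 1 position here. ADAMTS3 was the densest, with 8 positions in 17.2 kb, or 4.64 per 10 kb. FAM107A had 10 positions in 35.3 kb (2.83 per 10 kb), and NR3C1 had 8 in 37.9 kb (2.11 per 10 kb). SET had 4 positions in 19.2 kb and LYRM1 had 7 in 39.4 kb. NUDT12 was sparse, with 10 positions in 113 kb (0.882 per 10 kb) and a median gap of 10.4 kb. The median gap was 1.40 kb at NR3C1, 2.31 kb at FAM107A, 2.51 kb at ADAMTS3 and 4.06 kb at LYRM1. TMEM261 spanned 275 kb, of which 231 kb was a single gap after its first locus, and its other 7 positions lay within 43.6 kb.

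When intervals no more than 100 kb apart were linked, the members fell into 7 runs and no locus of another gene lay in any of them. LYRM1 and SET joined into 1 run of 148 kb across a gap of 89.6 kb, and TMEM261 gave 2 runs. Of the 360 runs over both lists, 218 held a single interval and 23 held at least 8, with 51 in the largest. Of those 23, 6 were runs of the members, which follows from the choice of these genes by their numbers of loci.

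**Figure D2:**
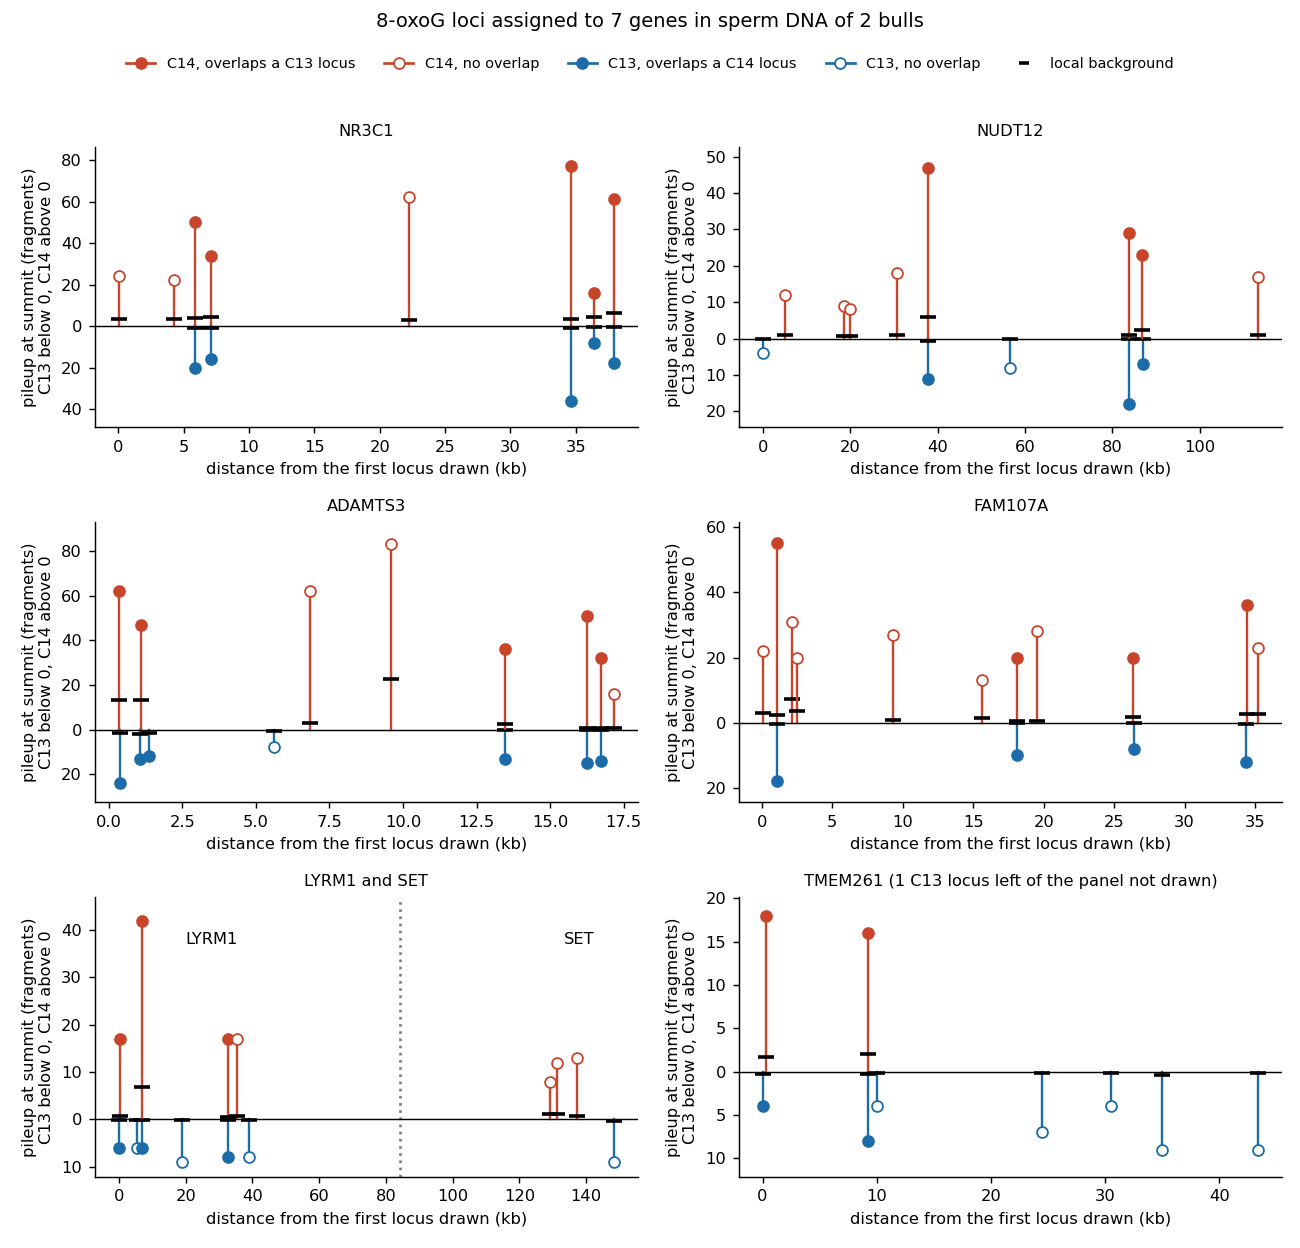
Pileup at the summit of each locus in fragments, with C14 drawn above 0 and C13 below, against the distance in kb from the first locus drawn; filled points overlap the other bull, open points do not, and black ticks mark the local background. The dotted line in the panel of LYRM1 and SET marks the middle of the gap between their loci, not a boundary between the genes. At NR3C1 every C13 stem has a C14 partner, while at TMEM261 the 5 right-hand C13 stems have none.

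At NR3C1 both bulls had the same 5 positions, in a pair of groups about 27.2 kb apart in C13, and C14 had 3 more. The highest locus of C13, at chr7:56618635-56618836, had a pileup of 36 (fold 18.80), and its C14 partner had 77 (fold 17.04). These were the highest pileup in C13 among all the members and the second highest in C14. The pair at chr7:56589884-56590100 had pileups of 20 in C13 and 50 in C14. At chr7:56591147-56591411 they were 16 and 34, at chr7:56620251-56620705 8 and 16, and at chr7:56621796-56622010 18 and 61. The order of the positions by pileup was alike in the bulls at both ends, with the same highest and the same lowest position. Summits of these pairs lay at most 8 bp from each other. C14 alone had a locus of 62 fragments at chr7:56606087-56606321 (exact Poisson 95% interval 47.5 to 79.5, fold 15.3), between the groups and 12313 bp from the nearest C13 locus. Its other loci without a partner, with 24 and 22 fragments, lay at the outer edge.

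At NUDT12 the bulls shared 3 of 10 positions. The highest C14 locus, chr7:105856694-105856898, had 47 fragments (fold 6.94) and its C13 partner had 11 (fold 7.76). At chr7:105902464-105902911 the order of size was different, with 18 fragments in C13, the highest there, and 29 in C14. The third pair, at chr7:105905767-105906202, had 7 and 23 fragments. C14 had 5 loci without a partner, with pileups of 8, 9, 12, 17 and 18, and C13 had 2, with 4 and 8. All of these were below the highest shared locus of the same bull. The unshared loci lay 4724 to 26066 bp from the nearest locus of the other bull, so none of them had a partner within 1000 bp either.

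The ADAMTS3 cluster held the single C14 locus with the highest pileup of the members, which also had the highest local background among them. This locus, at chr6:89211637-89211839, had 83 fragments over a background of 22.4 fragments, which was 62.5 times the lowest in the list, so its fold was 3.59. The neighbouring C14 locus at chr6:89208907-89209131 had 62 fragments over a background of 2.89 (fold 16.2). It lay 993 bp from a C13 locus of 8 fragments, and neither overlapped the other list. The cluster's edge at chr6:89219197-89219401 was a C14 locus of 16 fragments (fold 9.55) without a partner, 284 bp from the nearest C13 locus. Next to it, at chr6:89218332-89218912, both bulls had an interval with a pair of summits. These had 15 and 14 fragments in C13 and 51 and 32 in C14. The fold of 28.2 at the higher C14 summit was the largest of all the members in either bull. At the opposite edge, chr6:89202156-89202704 had 24 fragments in C13 (fold 9.48) and 62 in C14 (fold 4.43). The adjacent interval at chr6:89203147-89203647 had 13 and 12 fragments at its 2 summits in C13 and 47 in C14. The remaining pair, at chr6:89215471-89215702, had 13 and 36. Within this 17.2 kb of a single intron, the C14 background of shared loci thus ranged from 0.817 to 13.2 fragments. With a −log10 q of at least 5, only 4 of the 7 C13 loci stayed.

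FAM107A had 4 positions in C13, all shared, and 10 intervals in C14. The shared pileups were 18 in C13 and 55 in C14 at chr22:42402755-42403106, 10 and 20 at chr22:42419896-42420088, 8 and 20 at chr22:42428067-42428359, and 12 and 36 at chr22:42436185-42436577. The same position was highest in both bulls. The 7 C14 loci without a C13 partner had pileups of 13 to 31, and none exceeded the highest shared locus. The strongest of them by fold was chr22:42421342-42421611, with 28 fragments and a fold of 19.3, and it lay 1253 bp from the nearest C13 locus. The share of its C14 loci with a C13 locus was 36.4% at 1 bp of overlap and 72.7% within 1000 bp. Over the whole C14 list these shares were 36.6% and 41.4%, and over all members 50% and 63.6%.

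At LYRM1 the C13 pileups were low and stood on the lowest backgrounds of the list. The 6 C13 loci had pileups of 6, 6, 6, 8, 8 and 9, and 5 of them stood at the lowest local background of the list, as did 30.5% of all C13 loci. The 3 overlapping pairs had 6 and 17 fragments at chr25:18896447-18896788, 6 and 42 at chr25:18903126-18903612, and 8 and 17 at chr25:18928976-18929180, C13 first. The middle pair stood apart. Its pileup ratio of 7 (2.96 to 20.1) was the highest of the 195 pairs, and its background, 0.135 in C13 and 6.93 in C14, differed 51.4-fold, also the highest, although the C13 value is the lowest that MACS2 assigned and not a local measurement of the input. Its fold was nevertheless alike, 6.17 in C13 and 5.42 in C14. The part of the background in this ratio was not tested. The C14 locus without a partner had 17 fragments and lay 2468 bp from C13.

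Among the SET loci in the same stretch, C14 had 8, 12 and 13 fragments within 8.38 kb, all below the C14 median of 18. C13 had 9 fragments at chr25:19044476-19044676, equal to the C13 median. The nearest loci of the bulls were 10597 bp apart. Of the 3 C14 loci, only that of 13 fragments was kept when C14 pileups and backgrounds were divided by 2.66, the ratio of the lowest backgrounds. This left 1 SET locus in each bull.

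At TMEM261 both C14 loci overlapped a C13 locus, while 2 of the 8 C13 loci (25%, 3.19 to 65.1%) overlapped a C14 locus. All 8 had at most 9 fragments, and of such loci in the whole C13 list 32.6% overlapped. The pairs had 4 fragments in C13 and 18 in C14 at chr8:36103707-36104041, and 8 and 16 at chr8:36112865-36113097. The 6 C13 loci without a partner had 4, 4, 5, 7, 9 and 9 fragments, and 5 of them lay 588 to 33854 bp from the nearest C14 locus. The sixth, of 5 fragments, was the isolated first locus at chr8:35872173-35872361. Both loci with 9 fragments, which were higher than either shared locus of C13, lay within 33854 bp beyond the last C14 locus. These were small counts: the exact Poisson 95% interval of 9 fragments was 4.12 to 17.1 and that of 4 fragments 1.09 to 10.2. With a −log10 q of at least 5, the loci numbered 4 in C13 and 2 in C14, and 50% of the C14 loci still had a C13 partner, since the partner of 4 fragments had a −log10 q of 1.45. After division by 2.66, 1 of the 2 C14 loci was kept, while 82.2% of all C14 loci with a C13 partner were.

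Over the 21 overlapping pairs of the members, the pileup was higher in C14 in all 21, as it was in 192 of all 195 pairs. Summed pileups were 279 fragments in C13 and 774 in C14, a ratio of 2.77 (exact conditional 95% interval 2.42 to 3.19), beside 2.60 (2.49 to 2.71) over all pairs. By gene the ratio was 2.43 (1.91 to 3.11) at NR3C1, 2.73 (1.95 to 3.88) at FAM107A and 2.75 (1.86 to 4.15) at NUDT12. It was 2.83 (1.43 to 6.01) at TMEM261, 3.02 (2.27 to 4.06) at ADAMTS3 and 3.80 (2.30 to 6.57) at LYRM1. All of these intervals, which cover counting error only, held the ratio of 2.60 over all pairs. Without its middle pair LYRM1 had a ratio of 2.43 (1.27 to 4.90), a choice made after the values were seen. The local background differed more than the pileup, with a median ratio of 6.82 in the members and 6.01 in all pairs. Without the pairs at the lowest C13 background, 4 of the members and 61 in all, the medians were 7.505 and 6.19. Summits of a pair lay within 20 bp of each other in 15 of the 21 pairs (71.4%) and in 54.9% of all pairs, and by gene in 5 of 5 at NR3C1, 4 of 4 at ADAMTS3, 3 of 4 at FAM107A, 1 of 3 at NUDT12, 1 of 3 at LYRM1 and 1 of 2 at TMEM261. Starts lay within 1 bp in 5 of the 21 pairs (23.8%), near the 26.2% of all pairs. The fold was lower in C14 in 12 of the 21 pairs and in 96 of the 195. At NR3C1 it was lower in C14 in 5 of 5 pairs, and at FAM107A in 1 of 4.

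**Figure D3:**
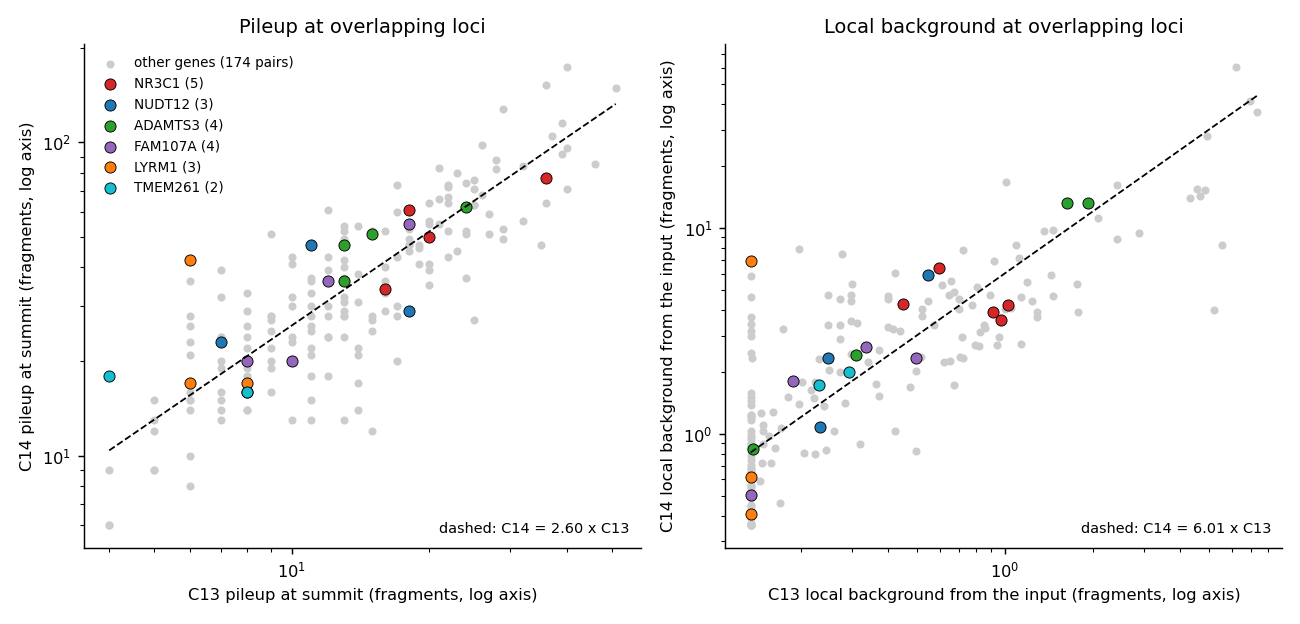
Pileup at the summit (left) and local background (right) of overlapping loci, C14 against C13, in fragments on log axes; each point is 1 pair of intervals, coloured by gene, and grey points are the 174 pairs of other genes. The dashed lines mark the summed pileup ratio of 2.60 and the median background ratio of 6.01 over all pairs; the LYRM1 pair with 6 and 42 fragments lies farthest above both.

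The 13 C13 loci without a partner had pileups of 4 to 9, in a list where 32.6% of loci with at most 9 fragments overlapped C14. Whether C14 had fragments at these positions was not analysed here, since only listed loci carry a value. The 22 C14 loci without a partner had pileups of 8 to 83, with a median of 19. At the pileup ratio of 2.60 over all pairs, the C13 values of 4 to 9 stand for 10.4 to 23.4 fragments on the C14 level, within the range of these C14 loci. The C14 loci were also divided, pileup and background, by the same 2.66. That matches the lists in their lowest background only, not in mapped reads. Over all members, 34 of 44 C14 loci then passed the lowest −log10 p of C13, beside 373 of 614 (60.7%) in the C14 list. These numbers were near those of C13 for the members (36) and for the list (370) alike, but they depend on this divisor. Every C13 locus passes that limit by definition. Of the 22 without a partner, 14 passed, beside 48.3% of all C14 loci without a partner. They included 3 of 3 at ADAMTS3, 2 of 3 at NR3C1, 4 of 7 at FAM107A, 3 of 5 at NUDT12, 1 of 1 at LYRM1 and 1 of 3 at SET.

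Of the 75 C14 loci with at least 50 fragments, 74.7% overlapped C13, and 19 did not. Among the members 9 loci had at least 50 fragments, of which 6 overlapped C13 and 3 did not, a share near that of the list. The latter were the ADAMTS3 loci with 83 and 62 fragments and the NR3C1 locus with 62, which divided by 2.66 give 31.2, 23.3 and 23.3 fragments. For comparison, the median C13 pileup was 9, and the highest C13 pileups were 24 at ADAMTS3 and 36 at NR3C1.

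The local background of the members in C14 stood above that of the list, with a median of 2.17 fragments beside 1.09, while in C13 it was 0.237 beside 0.222. The C14 median by gene was 3.77 at NR3C1, 2.65 at ADAMTS3, 2.34 at FAM107A and 1.86 at TMEM261. It was 1.05 at NUDT12, 1.04 at SET and 0.626 at LYRM1. At NR3C1 all 8 C14 loci lay between 3.12 and 6.40 fragments and all 5 C13 loci between 0.448 and 1.03, above the median of the respective list. ADAMTS3 ranged from 0.781 to 22.4 in C14, and its 3 C14 loci above 13 fragments were among 3.09% of the list. No member locus in C14 was at the lowest background, where 8.14% of the C14 list stood, and 7 in C13 were. The part of the background in the locus numbers was not tested.

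**Figure D4:**
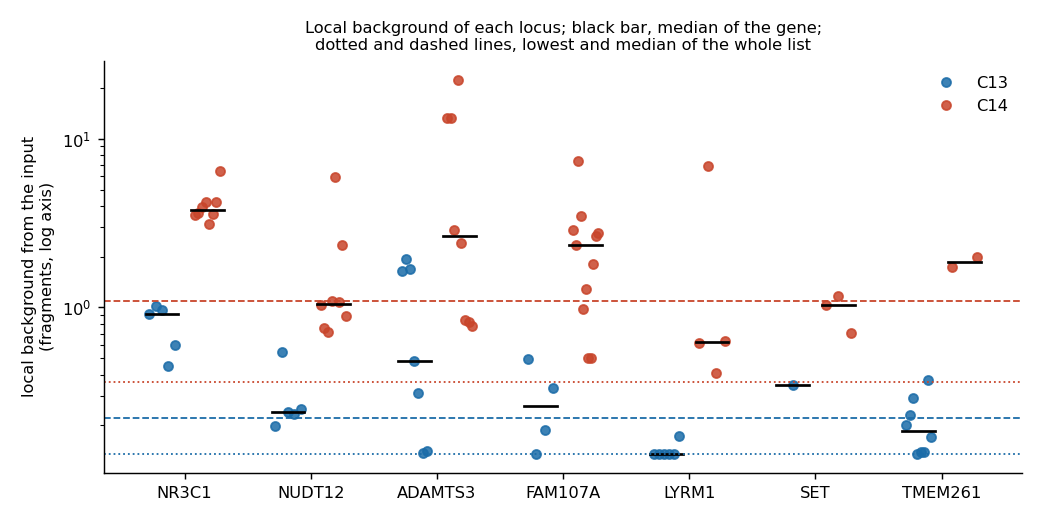
Local background from the input at each locus, in fragments on a log axis, by gene, with C13 in blue and C14 in red; black bars are the medians of the gene, dotted lines the lowest and dashed lines the median background of each list. All 8 C14 loci of NR3C1 lie above the C14 median of 1.09, and 5 of 6 C13 loci of LYRM1 sit on the lowest line.

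Genes with similar numbers of loci were sought within the members' own ranges, 1 to 8 loci in C13 and 2 to 11 in C14. Apart from the members, 71 genes fell within both ranges, and 10 of them had at least 10 loci over the lists. These were TTI2 with 18, C14H8orf33 with 14, PPP2R2A with 13, RNF122 with 12, and WBSCR17, FMR1NB and PAK1 with 11 each. INTS10, ITGB8 and TLE4 had 10 each. The likeness is in number of loci only.

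The families of the members were looked up by symbol, and by the same lookup 1.51% of the 21666 protein-coding genes of the RefSeq table had a locus in either list. NUDT12 was the only one of 21 Nudix genes with a locus, LYRM1 the only one of 5 LYR motif genes and FAM107A the only one of 2 FAM107 genes. Of 24 ADAMTS genes, ADAMTS12 had 1 C14 locus of 10 fragments and ADAMTS9 had 1 C13 locus of 4, both intergenic. Among 6 steroid receptors, NR3C2, the mineralocorticoid receptor, had 1 C13 locus of 8 fragments and 2 C14 loci of 26 and 12, no more than 14.4 kb upstream of its TSS. The C13 locus and the stronger C14 locus overlapped. Among 19 genes for PP2A subunits and inhibitors, PPP2R2A, a regulatory subunit of the phosphatase that SET inhibits, had 4 loci in C13 and 9 in C14, all upstream. None of 15 genes that handle 8-oxoG, OGG1, MUTYH and NUDT1 among them, had a locus in either list, and beside 1.51% of all genes, 0 of 15 is no result about them. These lists were compiled with the members known, and they describe which symbols occur.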

How the data were processed

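Sperm DNA of 1 fertile and 1 infertile bull was measured by OG-seq, with 1 captured and 1 input library per bull. The authors sheared the DNA to about 150 bp, used the Isaac aligner with bosTau8 as reference and dropped duplicates by Picard. Peaks came from MACS2, run once per bull with that bull's input as control, and ChIPseeker gave the nearest gene. Peaks with a fold over 2 and a q under 0.05 were kept. The pileup the authors deposited is a signal in whole fragments, not normalized between bulls. The authors deposited p and q as −log10 values and the enrichment as a fold ratio. Distances and annotation classes are also as deposited.

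The local background was computed as (pileup + 1) / fold − 1. From pileup and background, the deposited −log10 p was recomputed by a Poisson model to within a relative difference of 4.4e-06. Sharing of a locus required 1 bp of overlap. For a scaled C14 list, pileups and backgrounds were divided by 2.66. This equals the lists' lowest backgrounds and not their mapped reads. It kept loci with a −log10 p of at least 5.20, the lowest of C13, and a fold over 2. Exact binomial, Poisson and conditional 95% intervals cover counting error only. Fragments are not known to be independent molecules. With 1 library per bull no test was run. Read totals and coverage outside the listed loci were not used here. Alternatives were other overlap rules, stricter q thresholds, distance limits, link distances and the scaled C14 list. Python 3.11.15, pandas 2.3.3, numpy 2.4.6, scipy 1.17.1 and matplotlib 3.10.9 were used, and the scripts were tested on simulated data.

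The members and gene lists were chosen with earlier results of these data known. Genes named beyond the members were those of the family lists and those within the members' ranges of locus numbers, the latter named where at least 10 loci were assigned. Neighbouring genes came from a RefSeq table of ARS-UCD2.0, of which no coordinates were used. All 7 gene numbers matched it.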

Additional observations from a re-analysis of the deposited data

How the results depend on the processing

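No paired analysis was possible because each bull had 1 captured library and no test was run. Leaving out a replicate was likewise not possible. Of the alternatives for values over all 7 genes, 28 stayed within 1.5 times the main number, or for shares, medians and ratios within the counting interval of the main value, and 3 did not. Within 400 kb of the TSS, 19 member loci stayed in C13 and 23 in C14, since NUDT12, FAM107A and TMEM261 dropped out whole. Linking intervals at 10 kb in place of 100 kb gave 19 runs in place of 7. For single genes, 13 alternatives went beyond these limits and 167 did not. Dividing C14 by 2.66 left 34 C14 beside 36 C13 loci over all members, as it left 373 beside 370 in the whole lists. C14 still had more loci at NR3C1 (6 beside 5), NUDT12 (6 beside 5), ADAMTS3 (8 beside 7) and FAM107A (8 beside 4), and SET had 1 in each bull. LYRM1 (4 beside 6) and TMEM261 (1 beside 8) had fewer in C14. With 1 captured library per bull, differences this small cannot be judged. Besides those named above, with a −log10 q of at least 5 in both lists all 4 remaining ADAMTS3 loci of C13 (100%) overlapped C14. These include both summits of 1 interval. Within 1000 bp, all 7 ADAMTS3 loci of C13 had a C14 locus. The lists give no value where a locus was not called, so a position absent from 1 list may still have held fragments below the threshold.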
